A study of Homo sapiens with 18 samples.

Results

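The genes described here encode the core of the G1 machinery: the D-type cyclins CCND1, CCND2 and CCND3, the E-type cyclins CCNE1 and CCNE2, the kinases CDK4 and CDK6, the CDK inhibitors CDKN1B (p27) and CDKN2C (p18), and the retinoblastoma protein RB1. They were picked by gene symbol, and all 10 were found among the 58815 genes of the counts table. Their RNA was measured in 3 derivatives of MDA-MB-231, a triple-negative human breast cancer cell line: LM2, which favours the lung, BrM3, which favours the brain, and BoM, which favours bone. The cell line label of the brain derivative reads BrM2, and BrM3 is the name the study uses.

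Each line expressed 1 of 2 short hairpins when given doxycycline (DOX). The hairpin shWDR5 targets WDR5, a chromatin scaffold protein, and shCtrl is the control. All 18 libraries, controls included, came from cells kept in DOX at 1 μg/mL for 3 days, and each of the 6 groups holds 3 libraries harvested at different passages. The comparison within a line asks what WDR5 knockdown does to these genes, and the comparison of the shCtrl libraries asks how the lines differ before it. A second hairpin and cells without a hairpin are not analysed here, so an effect of shWDR5 beyond its target cannot be told apart from the loss of WDR5. The p-values measure the spread between cultures of the same line.

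Total counts ran from 17485841 to 119667013 per library. Knockdown left WDR5 itself at 18.5%, 25.5% and 21.2% of the control level in LM2, BrM3 and BoM, respectively. The source descriptions of 12 of the 18 libraries name another metastatic site than their titles, and the titles were followed. The cells are labelled breast epithelial. The keratins KRT8 (194 to 447 CPM, counts per 1000000 of the scaled library total) and KRT18 (263 to 501 CPM) were present in every library, but CDH1, which encodes E-cadherin, had 2 to 23 counts. Markers of other cell types were low but not all absent. Of the leukocyte markers CD3E had at most 3 counts and PTPRC at most 40, and of the endothelial markers CDH5 had at most 13 and PECAM1 up to 268. Of 3 fibroblast markers, DCN had at most 7 counts, COL3A1 at most 139 and COL1A1 51 to 10684 (1.77 to 87.0 CPM). Their summed level was lower with shWDR5 in BrM3 (3.03 to 4.80 against 7.46 to 9.76 CPM) and BoM (2.20 to 2.42 against 5.22 to 8.23 CPM) and overlapped in LM2 (30.6 to 50.6 against 35.9 to 88.1 CPM). Summed mesenchymal markers (VIM, CDH2, FN1 and ZEB1) were higher with shWDR5 in LM2 (3160 to 3370 against 2634 to 2822 CPM) and BrM3 (2213 to 2478 against 1993 to 2161 CPM) and overlapped in BoM (2123 to 2426 against 1914 to 2256 CPM). VIM alone had 1494 to 2231 CPM, and CDH2 at most 0.885 CPM. Summed endothelial markers were also higher with shWDR5 in LM2 (3.63 to 5.35 against 2.42 to 2.80 CPM). Summed leukocyte markers were higher in BrM3 (0.868 to 1.06 against 0.668 to 0.817 CPM). Both sums overlapped in the other lines. Of all tested genes, 10.7% in LM2 and 15.9% in BrM3 separated upward in this way, and 19.7% downward in BrM3. The part of these markers in the results was not tested.

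A cell in G1 commits to DNA replication when cyclin D bound to CDK4 or CDK6 starts to phosphorylate RB1, and cyclin E with CDK2 completes it. Phosphorylated RB1 releases the E2F factors, which switch on genes for S phase. p18 blocks CDK4 and CDK6, while p27 mainly restrains cyclin E with CDK2. Breast tumours often rely on cyclin D1, and CDK4 and CDK6 are drug targets in breast cancer.

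CDK4 is the member whose RNA changed most clearly after knockdown, so the sequence upstream of its RefSeq start is printed here, with that of its paralogue CDK6 beside it. RefSeq (GRCh38.p14) upstream windows of 250 bases were matched for 7 of the 10 members, 12 windows in all. The stretch from position -250 to -138, counted from the annotated start, is shown 5′ to 3′ on the minus strand, on which both genes lie. For CDK4 it holds no annotated exon, but 1 of the 15 GENCODE transcripts of CDK4 starts further upstream, so the stretch lies within the annotated span of the gene, in an intron of that transcript. Capitals mark CACGTG, the E-box that MYC and related factors bind.

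CDK4, chr12:57752448-57752560: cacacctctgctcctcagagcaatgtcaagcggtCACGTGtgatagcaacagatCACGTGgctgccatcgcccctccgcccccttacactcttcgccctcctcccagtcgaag
CDK6, chr7:92836711-92836823: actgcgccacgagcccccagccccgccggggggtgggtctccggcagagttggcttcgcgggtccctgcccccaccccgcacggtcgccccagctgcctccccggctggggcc

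The full CDK4 window held CACGTG 3 times, at positions -216, -196 and -101, and the CDK6 windows held it 0 times. The copy at -101 lies in an exon of another annotated CDK4 transcript and is not printed. CACGTG reads alike on both strands. It was present in 6.34% of all 35116 upstream windows, and 3 or more copies were present in 0.0797%, a count chosen after the CDK4 sequence was seen. Of the 3 windows of CDKN2C, 2 held a copy each. The GC box GGGCGG, searched on both strands, occurred 3 times in the CDK4 window and was present in 42.6% of all windows. The E2F letters TTTCGCGC and TTTGGCGC, searched on both strands, were found in 0.968% of all windows and in 0 of the 12 windows of these genes. The window of RB1 (chr13:48476200-48476449) lies inside the gene, whose annotated GENCODE start is chr13:48303744. The sequence upstream of that start was therefore not searched for any of these letters. The windows of CDKN1B and CCND3 also lie within the annotated spans of their genes, downstream of the outermost starts. A match is a description of the letters and says nothing about what binds there.

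Levels can be compared between genes only per length, so CPM were divided by the kilobases of all annotated exons of a gene. In control LM2 cells CCND1 was highest, with a mean level of 122 CPM per kilobase (116 to 126, n = 3), followed by CDK4 at 48.9 (44.1 to 55.4), CDKN2C at 28.2 (26.5 to 30.6) and RB1 at 20.3 (18.4 to 23.2). CCND3 at 15.7 and CDK6 at 13.9 overlapped, as did CCNE1 at 5.30 and CDKN1B at 4.61, while CCNE2 at 7.22 lay between these pairs. CCND2 was lowest, at 0.158 CPM per kilobase.

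CCND1 and CDK4 headed the order in control BrM3 and BoM cells too, and CCND2 closed it. In BrM3 the mean levels of CCND3 (21.0 CPM per kilobase) and CDKN2C (20.4) overlapped, as did CDK6 (7.59) and CCNE1 (6.93). In BoM the levels of CDKN2C (18.3) and CCND3 (17.5) overlapped. The middle of the order depends on the length used. Over the longest transcript, CCND3 stood at 37.8 CPM per kilobase in control LM2 cells, above CDKN2C at 29.3 and RB1 at 27.3.

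**Figure D1:**
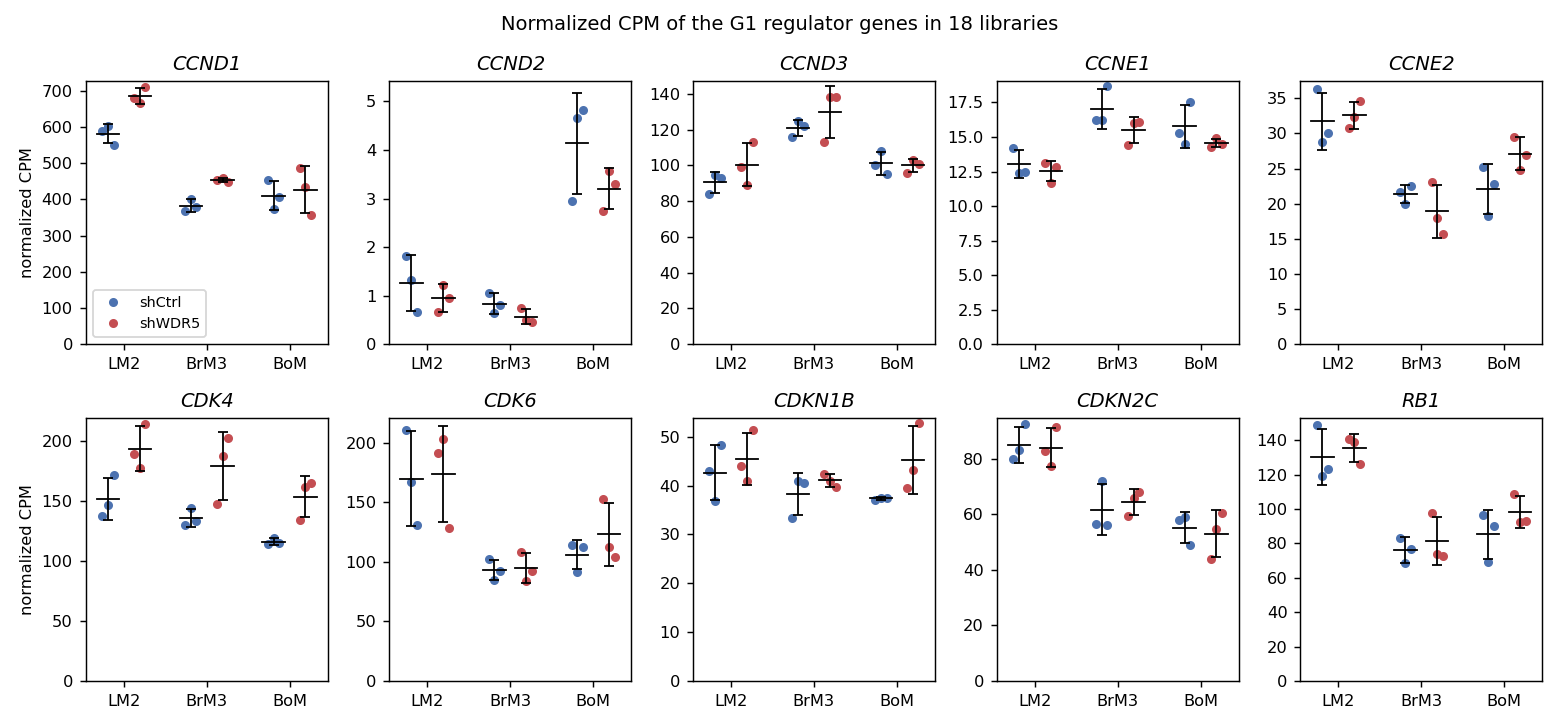
Scaled counts (CPM, vertical axes from 0) of the 10 genes in the 18 libraries, by line and hairpin, with points for libraries, long bars for the mean and error bars for the SD of 3 libraries. The 3 shWDR5 points of CDK4 lie above the 3 shCtrl points in each line, and CCND2 stays under 5 CPM throughout.

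CDK4 was the member with the clearest difference after WDR5 knockdown. With edgeR's quasi-likelihood test and Benjamini-Hochberg adjustment over 12160 genes, 0 of the 10 members passed an adjusted p of 0.05 in LM2, where 6.29% of all tested genes passed (1.49% higher and 4.80% lower). CDK4 alone passed in BrM3, against 10.9% of tested genes (2.92% higher), and CDK4 alone in BoM, against 16.2% (5.41% higher). Counts this close to the shares over all genes say nothing particular about the members. In BoM, where same-numbered libraries deviated together, a fit with the replicate number as a block called the same number of members, 1, and 26.4% of tested genes. That member was CDK4 (log2 0.40, edgeR adjusted p = 0.0059). In LM2, 2 members had an unadjusted p under 0.05, and DESeq2 called 1, CDK4. With the block in LM2, where same-numbered libraries did not all deviate together, edgeR also called CDK4 (adjusted p = 0.021), and 11.9% of tested genes. In RNA of whole cultures, a different share of cells in G1 and a different amount of RNA per cell cannot be told apart. Averaged over the lines, 2 members rose, CDK4 and CCND1, and 0 fell, while 35.5% of all tested genes passed (15.6% higher and 19.9% lower). For LM2, BrM3 and BoM the members had median log2 fold changes of 0.05, 0.08 and 0.13, and all tested genes had medians of 0.00, 0.00 and 0.02.

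**Figure D2:**
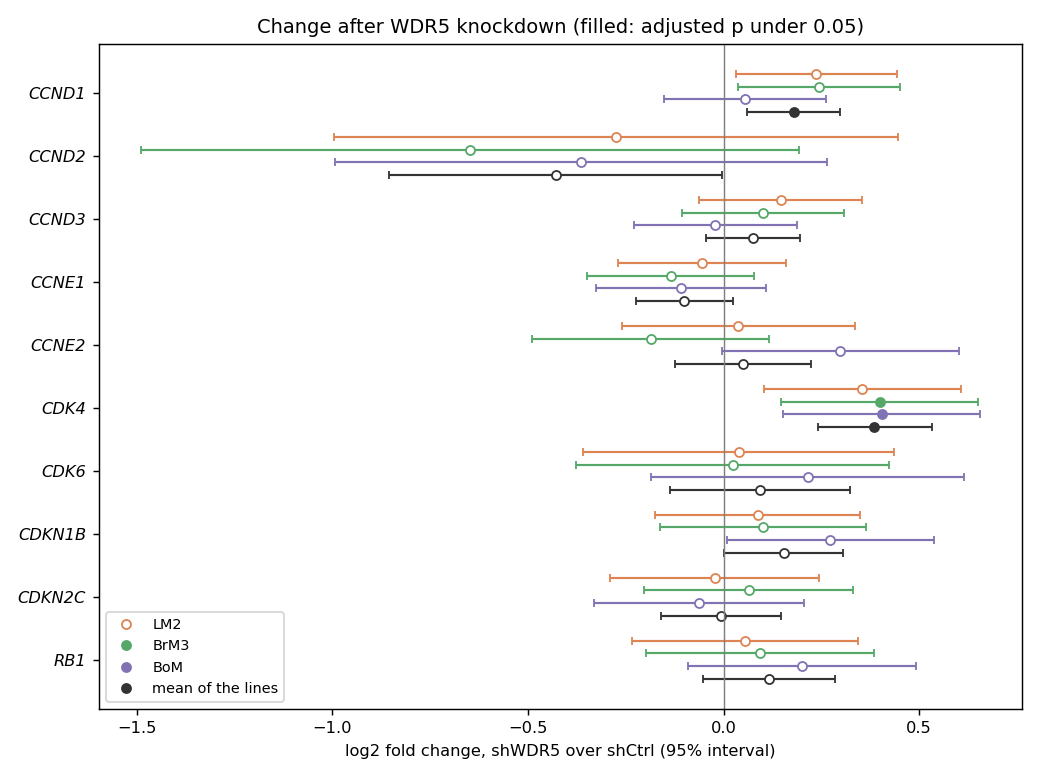
Log2 fold change of shWDR5 over shCtrl for each gene (horizontal axis), in each line and as the mean of the lines, with 95% intervals from the edgeR fit; filled points passed an adjusted p of 0.05. CDK4 is filled in BrM3, BoM and the mean, CCND1 in the mean, and the intervals of CCND2 are the widest.

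CDK4 (chr12:57747727-57756013, minus strand) encodes the kinase that binds the D-type cyclins. In LM2 it stood at 137, 146 and 171 CPM with shCtrl and at 189, 177 and 214 CPM with shWDR5. In BrM3 the values were 130, 144 and 133 CPM against 147, 187 and 202 CPM. In BoM they were 114, 119 and 115 CPM against 134, 161 and 165 CPM. All 9 knockdown libraries lay above all 3 controls of their line. Such upward separation was seen for 10.7%, 15.9% and 12.8% of tested genes in LM2, BrM3 and BoM, respectively.

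The log2 fold changes of CDK4 were 0.35, 0.40 and 0.41 for LM2, BrM3 and BoM (SE 0.12 each), with edgeR adjusted p-values of 0.092, 0.040 and 0.029. Averaged over the lines CDK4 rose by 0.39 on the log2 scale (SE 0.07, adjusted p = 0.00036), to 130.7% of the control level. The rise did not differ detectably between lines. BoM and BrM3 differed by 0.01 on the log2 scale, with a 95% interval from -0.35 to 0.36.

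The averaged call of CDK4 held in all 18 fits that left out 1 library (log2 0.35 to 0.43), but the calls within a line did not. In BrM3 the call was lost without any of shCtrl replicates 1, 2 and 3 or shWDR5 replicates 2 and 3 of that line (log2 0.30 to 0.45, highest adjusted p = 0.18), and also without BoM shCtrl replicate 3, LM2 shCtrl replicate 2 or LM2 shWDR5 replicate 1 (edgeR adjusted p = 0.051 each). In BoM it was lost without any of the shCtrl libraries or shWDR5 replicates 2 and 3 (log2 0.35 to 0.42, edgeR adjusted p = 0.068 to 0.097), and in LM2 it was gained without BrM3 shWDR5 replicate 1 (adjusted p = 0.041 by edgeR). With each line's 6 libraries fitted alone, edgeR's adjusted p was 0.054 in BrM3 and 0.051 in BoM.

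Libraries differed in how their counts depended on GC content. BrM3 shWDR5 replicate 1, the lowest of its group for CDK4, had a log2 slope of -0.208 per 10 points of GC against its group mean. GC dependence was removed from each library against the mean of all libraries, so trends that differ between hairpins or lines were removed too. With that done, CDK4 passed in all 3 lines. Its log2 fold changes were then 0.39, 0.46 and 0.50 for LM2, BrM3 and BoM, and edgeR's adjusted p-values 0.010, 0.0024 and 0.00093. Of all tested genes 16.4%, 24.6% and 28.5% passed under that setting, more than in the reported fit.

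CDK4 shares 1369 exonic bases with TSPAN31, a tetraspanin gene on the opposite strand. The library kit marks strand, but the strand setting of the counting is not given in the sources used here. TSPAN31 was listed at 6.91 to 15.3 CPM. Its log2 fold change was -0.11 in LM2 and -0.27 in BrM3, and it fell by 0.37 in BoM (edgeR adjusted p = 0.042), against the direction of CDK4.

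Over the 18 libraries the tested genes whose log2 CPM were most like those of CDK4 were OSR2, a zinc finger transcription factor (Pearson r = 0.933), and PGK1, a glycolytic enzyme (r = 0.925). These correlations are descriptions over libraries that share line, hairpin and GC dependence.

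CDK6 (chr7:92604921-92836573, minus strand) is the paralogue of CDK4. It stood at 211, 167 and 131 CPM in control LM2 cells and at 191, 203 and 128 CPM after knockdown. The values were 102, 84.5 and 92.6 CPM against 108, 83.7 and 92.6 CPM in BrM3, and 114, 91.7 and 112 CPM against 153, 112 and 104 CPM in BoM. The groups overlapped in every line. The averaged log2 fold change was 0.09, with a 95% interval from -0.14 to 0.32. Within single lines the intervals reached 0.44, 0.42 and 0.61 for LM2, BrM3 and BoM and held the values of CDK4. The ratio of CDK4 to CDK6 in a library did not separate the hairpins (exact two-sided permutation p = 0.40, 0.30 and 0.60), so a difference in response between the kinases was not shown. The exons of CDK6 are AT-rich (39.7% GC), and its libraries spread against their GC slope: LM2 shCtrl replicate 1 had a slope of -0.234 and stood 0.34 above its group mean in log2 CPM.

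CCND1 (chr11:69641156-69654474, plus strand) encodes cyclin D1. In LM2 it stood at 589, 602 and 551 CPM with shCtrl and at 680, 665 and 709 CPM with shWDR5. In BrM3 the values were 367, 401 and 380 CPM against 453, 458 and 449 CPM. In BoM they were 452, 373 and 406 CPM against 487, 434 and 358 CPM. The groups did not overlap in LM2 and BrM3, an upward separation seen for 10.7% and 15.9% of tested genes. They did overlap in BoM.

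The log2 fold changes of CCND1 for LM2, BrM3 and BoM were 0.24, 0.24 and 0.06, and edgeR's adjusted p-values of 0.17, 0.13 and 0.75 missed the threshold. In BrM3 CCND1 passed with GC dependence removed (log2 0.29, edgeR adjusted p = 0.028) and with that line's 6 libraries alone (log2 0.26, edgeR adjusted p = 0.038). Of all tested genes 24.6% and 13.0% passed under these settings. Averaged over the lines CCND1 rose by 0.18 on the log2 scale (SE 0.06, edgeR adjusted p = 0.020), a call kept in all 18 fits without 1 library. BoM and LM2 differed in this response by -0.18, with a 95% interval from -0.47 to 0.11. CCND1 shares 497 exonic bases with LTO1 on the opposite strand, whose log2 fold changes were 0.00, 0.11 and 0.07 in LM2, BrM3 and BoM, with adjusted p-values of at least 0.46 by edgeR.

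CCND3 (chr6:41934934-42050357, minus strand), cyclin D3, was listed at 83.9, 94.5 and 92.8 CPM in control LM2 cells and at 98.9, 88.9 and 113 CPM after knockdown. In BrM3 it was at 116, 125 and 122 CPM against 113, 138 and 138 CPM, and in BoM at 100, 108 and 95.4 CPM against 95.8, 103 and 101 CPM. The groups overlapped in all 3 lines, and the averaged log2 fold change was 0.08 (95% interval -0.05 to 0.20). With the GC dependence removed CCND3 passed in the average (0.18, edgeR adjusted p = 0.00030), in LM2 (0.19, edgeR adjusted p = 0.035) and in BrM3 (0.21, edgeR adjusted p = 0.017). Under that setting 51.5%, 16.4% and 24.6% of all tested genes passed in these comparisons.

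CCND2 (chr12:4269771-4305353, plus strand), cyclin D2, was close to the limit of these libraries, with 13 to 178 counts. Its averaged log2 fold change was -0.43 (95% interval -0.85 to -0.01, edgeR adjusted p = 0.11). Without LM2 shCtrl replicate 3 it was -0.56 and passed (edgeR adjusted p = 0.019). In that library CCND2 stood at 0.659 CPM, against 1.81 and 1.32 CPM in the other controls of the line.

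The E-type cyclins did not pass in any line. CCNE1 (chr19:29811991-29824312, plus strand) showed knockdown values of -0.06, -0.14 and -0.11 on the log2 scale for LM2, BrM3 and BoM. Its BrM3 knockdown libraries, at 14.4, 16.0 and 16.1 CPM, lay just below the controls at 16.2, 16.2 and 18.7 CPM, a downward separation seen for 19.7% of tested genes. CCNE2 (chr8:94879770-94896678, minus strand) went from 25.2, 18.2 and 22.8 CPM to 29.5, 24.8 and 27.0 CPM in BoM, with overlapping groups, and from 21.6, 20.0 and 22.5 CPM to 23.1, 17.9 and 15.7 CPM in BrM3.

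The response of CCNE2 was the only 1 of the members to differ between lines at an unadjusted p under 0.05. BoM lay above BrM3 by 0.48 on the log2 scale (SE 0.20, unadjusted p = 0.029), and edgeR's adjusted p was 1.0. After adjustment, 0 members differed in response between any pair of lines by edgeR or DESeq2. Over all tested genes edgeR called 0.00822% for BrM3 against LM2, 0% for BoM against LM2 and 0.00822% for BoM against BrM3.

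The inhibitors did not pass in any line. CDKN1B (chr12:12685498-12722369, plus strand) stood at 37.1, 37.5 and 37.5 CPM in control BoM cells and at 39.4, 43.2 and 52.9 CPM after knockdown. These groups did not overlap, an upward separation seen for 12.8% of tested genes. The log2 fold change of 0.27 missed the threshold (SE 0.13, edgeR adjusted p = 0.15). CDKN1B also missed it with the replicate number as a block (0.26, edgeR adjusted p = 0.066). In LM2 and BrM3 its log2 fold changes were 0.09 and 0.10. Averaged over the lines CDKN1B had a log2 fold change of 0.15 (95% interval 0.00 to 0.31, edgeR adjusted p = 0.11). With GC dependence removed and the replicate number as a block it passed in BoM (0.24, edgeR adjusted p = 0.037) and in the average (0.16, edgeR adjusted p = 0.0096). Of all tested genes 39.9% and 60.4% passed under that setting. CDKN2C (chr1:50960745-50974634, plus strand) had log2 fold changes of -0.02, 0.07 and -0.06 in LM2, BrM3 and BoM, and an averaged value of -0.01 with a 95% interval from -0.16 to 0.15. The levels of CDKN2C were 79.9, 83.1 and 92.4 CPM in control LM2 cells and 82.7, 77.6 and 91.5 CPM after knockdown.

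RB1 (chr13:48303744-48599436, plus strand) overlapped between hairpins in every line. It stood at 149, 119 and 123 CPM against 141, 139 and 126 CPM in LM2, at 83.4, 68.5 and 76.9 CPM against 97.8, 74.1 and 72.4 CPM in BrM3, and at 96.6, 69.4 and 89.9 CPM against 109, 92.5 and 92.9 CPM in BoM. The averaged log2 fold change was 0.12 (95% interval -0.05 to 0.28).

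Set against CDKN2C, an inhibitor that binds them, CDK4 and CDK6 together lay above the control range after knockdown in each line. The summed level of CDK4 and CDK6 per kilobase over that of CDKN2C was 2.16 to 2.32 in control LM2 cells and 2.63 to 2.87 after knockdown. It was 2.24 to 2.71 against 2.86 to 3.23 in BrM3, and 2.35 to 2.86 against 3.08 to 3.85 in BoM. The groups did not overlap in any line. An exact two-sided permutation test gave p = 0.10 in each line, the smallest value that 3 libraries against 3 can give. The ratio of CDK4 to CDKN1B per kilobase overlapped between hairpins in BrM3 (9.79 to 11.7 against 10.4 to 15.3) and BoM (9.18 to 9.49 against 9.35 to 11.1). In LM2 it did not overlap (9.53 to 11.8 against 12.5 to 12.9). How often ratios of other genes separate was not tested. These ratios hold the same CDK4 counts as above and are no independent measure.

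More members passed between LM2 and the other control lines than after knockdown in any line. Between control BrM3 and LM2 cells, 7 of the 10 members passed, 2 higher and 5 lower in BrM3, while 47.6% of all tested genes passed (24.2% higher and 23.4% lower). Between control BoM and LM2 cells 8 passed, 2 higher and 6 lower in BoM, against 51.8% of tested genes (26.0% higher and 25.8% lower). Between BoM and BrM3 2 passed, CCND2 higher and CCND3 lower in BoM, against 37.6% (17.8% higher and 19.8% lower). CCND2 passed the filter on low counts through BoM libraries alone, and without it 7 of 9 members passed between BoM and LM2, 1 of them higher, and 1 of 9 between BoM and BrM3. Whether the members' share differs from that of all genes was not tested. The median log2 difference of the members was -0.47 for BrM3 against LM2 and -0.44 for BoM against LM2, with medians over all tested genes of 0.01 and -0.01.

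**Figure D3:**
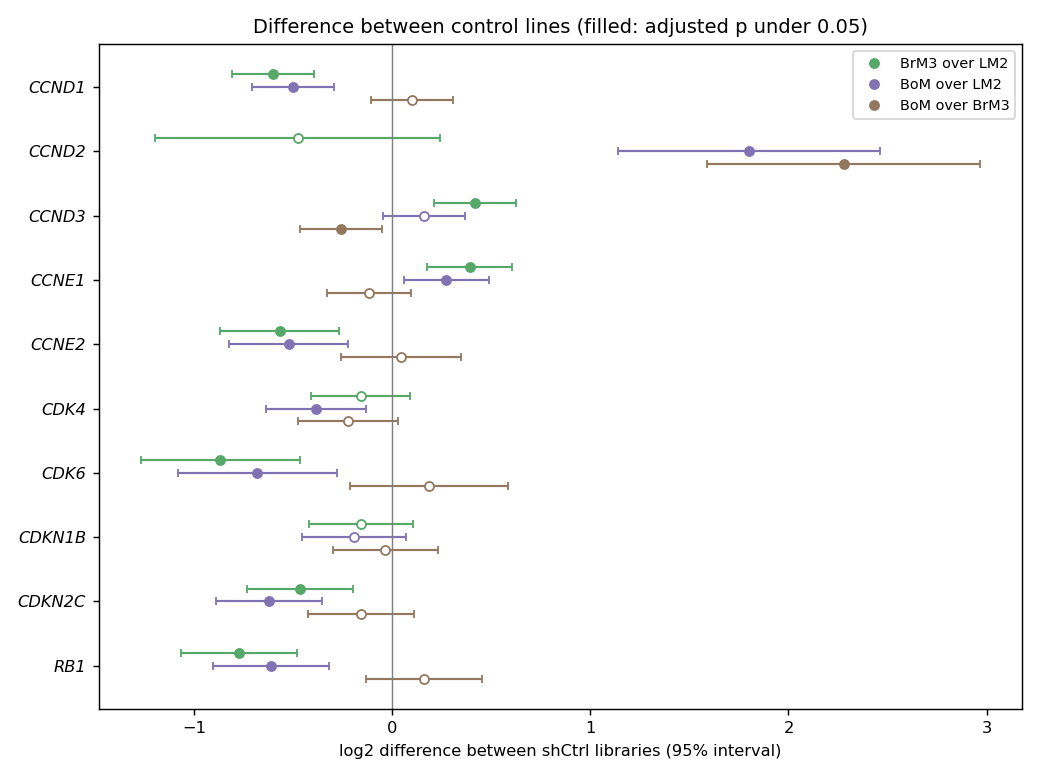
Log2 difference between the shCtrl libraries of each pair of lines for each gene (horizontal axis), with 95% intervals from the edgeR fit; filled points passed an adjusted p of 0.05. CCND1, CCNE2, CDK6, CDKN2C and RB1 are lower in BrM3 and in BoM than in LM2, and CCND2 is higher in BoM than in the other lines.

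In all, 5 of the 10 members were lower in both BrM3 and BoM than in LM2, as 15.0% of all tested genes were, and both comparisons share the LM2 controls. The log2 difference of CDK6 from LM2 was -0.87 in BrM3 and -0.68 in BoM (edgeR adjusted p = 0.0012 and 0.0063). RB1, with -0.77 and -0.61, and CCND1, with -0.60 and -0.50, followed (largest edgeR adjusted p = 0.0014). CCNE2 had -0.57 and -0.52, and CDKN2C -0.47 and -0.62 (largest edgeR adjusted p = 0.0059). For each of these genes all 3 control LM2 libraries lay above all control libraries of the other lines.

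CDK4 was lower in BoM than in LM2, with a log2 difference of -0.38 (edgeR adjusted p = 0.012), a call lost without LM2 shCtrl replicate 3, its highest control (log2 -0.28, edgeR adjusted p = 0.076). Between control BrM3 and LM2 7 members had groups that did not overlap, against 58.9% of tested genes, and between control BoM and LM2 9 did, against 56.1%. Between control BoM and BrM3 these were CCND2, CCND3 and CDK4, against 54.4% of tested genes. CDKN1B did not pass between any pair of lines in the reported fit, with log2 differences of -0.16, -0.19 and -0.03. With GC dependence removed and the replicate number as a block, it passed between BrM3 and LM2 (-0.21, edgeR adjusted p = 0.036). It also passed there between BoM and LM2 (-0.25, edgeR adjusted p = 0.015). Of all tested genes 67.5% and 69.2% passed under that setting.

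The shares of the D-type cyclins separated the control lines. CCND1 made up 87.7% to 89.3% of the summed D cyclin level per kilobase in control LM2 cells, 80.3% to 84.2% in BoM and 79.0% to 79.4% in BrM3. CCND3 took 10.5% to 12.2% in LM2, 15.5% to 19.1% in BoM and 20.5% to 20.9% in BrM3. The ranges of the lines did not overlap for either share. The size of the shares depends on the length used, and over the longest transcript CCND3 took 20.1% to 23.0% in LM2, 28.1% to 33.6% in BoM and 35.6% to 36.1% in BrM3. The exact two-sided permutation p was 0.10 for each pair of lines, the smallest possible. In counts CCND3 was higher in BrM3 than in LM2 by 0.42 (edgeR adjusted p = 0.0020). Its difference between BoM and LM2 was 0.16 (edgeR adjusted p = 0.18), and 0.28 with GC dependence removed (edgeR adjusted p = 0.00057), where 62.0% of tested genes passed.

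CCND3 was also lower in BoM than in BrM3, with a log2 difference of -0.26 (edgeR adjusted p = 0.047). That call held in 6 of the 18 fits without 1 library. It was lost without shCtrl replicates 1 or 3 of BoM, 1, 2 or 3 of BrM3 or 2 or 3 of LM2, and without shWDR5 replicates 2 or 3 of BoM, 2 or 3 of BrM3 or 1 of LM2 (log2 -0.29 to -0.22, highest adjusted p = 0.16 by edgeR).

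CCND2 stood at 2.94, 4.65 and 4.83 CPM in control BoM cells, at 1.06, 0.642 and 0.802 CPM in BrM3 and at 1.81, 1.32 and 0.659 CPM in LM2. All BoM libraries lay above those of the other lines. BoM was higher than BrM3 by 2.28 (edgeR adjusted p = 3.7e-05) and higher than LM2 by 1.80 (adjusted p = 0.00013 by edgeR). CCND2 entered the test through 3 of the 6 BoM libraries only, so this difference is partly set by the filter on low counts. It also passed without that filter. Even in BoM, CCND2 made up 0.327% to 0.596% of the D cyclin level per kilobase. Another gene model, ENSG00000285901, shares 999 exonic bases with CCND2 on the same strand and was listed at 0 in all libraries. Without LM2 shCtrl replicate 3, CCND2 was also lower in BrM3 than in LM2 (log2 -0.86, edgeR adjusted p = 0.030).

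The E-type cyclins went in opposite directions between lines. CCNE1 stood at 14.2, 12.4 and 12.5 CPM in control LM2 cells, below all control libraries of BrM3 (16.2, 16.2 and 18.7 CPM) and BoM (15.3, 14.5 and 17.5 CPM). CCNE2 stood at 36.4, 28.8 and 30.0 CPM in LM2, above BrM3 (21.6, 20.0 and 22.5 CPM) and BoM (25.2, 18.2 and 22.8 CPM). CCNE1 was higher than in LM2 by 0.39 in BrM3 (edgeR adjusted p = 0.0042) and 0.27 in BoM (adjusted p = 0.032 by edgeR).

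The call of CCNE1 in BoM was lost with filterByExpr (adjusted p = 0.053), with no filter (0.26) and with the 6 libraries alone (0.11) by edgeR, and also without BoM shCtrl replicate 1 (log2 0.28, adjusted p = 0.051) or 3 (0.19, 0.16) or without LM2 shCtrl replicate 2 (0.24, 0.11) or 3 (0.24, 0.10). The CCNE1 to CCNE2 ratio per kilobase was 0.698, 0.769 and 0.743 in control LM2 cells. It was 1.34, 1.45 and 1.48 in BrM3 and 1.08, 1.42 and 1.37 in BoM. CCNE2 was the more abundant of the pair in LM2, and CCNE1 in the other lines (exact two-sided permutation p = 0.10 for LM2 against each, the smallest possible). After knockdown the ratio stayed under 1 in LM2 (0.761, 0.648 and 0.661) and above 1 in BrM3 (1.12, 1.60 and 1.82), while in BoM it was 0.864, 1.08 and 0.963. CCNE2 shares 1629 exonic bases with INTS8 on the opposite strand, which was listed at 21.1 to 43.5 CPM. INTS8 did not pass in any line after knockdown.

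**Figure D4:**
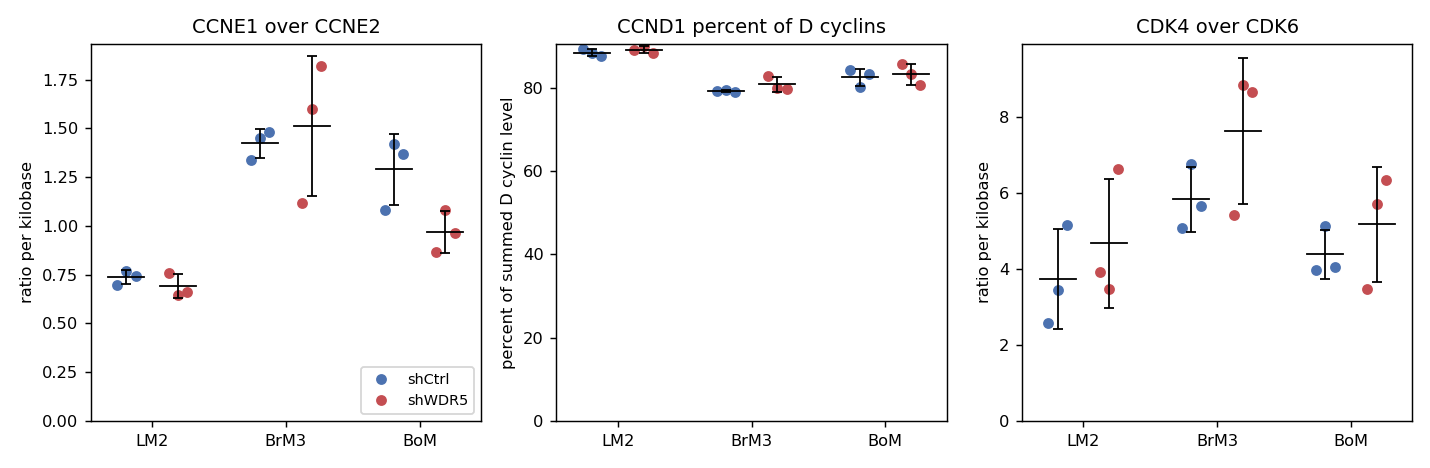
Ratios within each library, all from levels per kilobase: CCNE1 over CCNE2 (left), CCND1 as a percent of the summed D cyclins (middle) and CDK4 over CDK6 (right), by line and hairpin, with points for libraries, long bars for means and error bars for the SD of 3 libraries. The LM2 points of the left panel all lie under 1, and the 3 lines separate in the middle panel.

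The ratio of CDK4 to CDK6 per kilobase was 2.57 to 5.16 in control LM2 cells, 5.06 to 6.75 in BrM3 and 3.97 to 5.13 in BoM, so CDK4 was the more abundant kinase RNA in every line. These ranges overlapped between neighbouring lines, and so did the control and knockdown ranges in every line.

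Other genes of the pathway also changed. E2F2, an activating E2F factor, fell in all 3 lines, as 3.26% of tested genes did. Its log2 fold changes for LM2, BrM3 and BoM were -0.64, -1.45 and -1.69 (edgeR adjusted p = 0.039, 0.00018 and 1.3e-05). In BoM it went from 13.4 to 18.6 CPM with shCtrl to 4.39 to 5.02 CPM with shWDR5. RBL2, the pocket protein p130 and a relative of RB1, fell by 0.54 in LM2 and 0.52 in BrM3 (edgeR adjusted p = 0.021 and 0.019). E2F6, a repressive E2F factor, rose by 0.39 in both LM2 and BoM (edgeR adjusted p = 0.015 and 0.0068). E2F8 fell by 0.47 in BrM3 (edgeR adjusted p = 0.014).

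Of the 12 pocket protein, E2F and DP genes other than RB1, 1 rose and 2 fell in LM2, 0 rose and 3 fell in BrM3, and 2 rose and 1 fell in BoM. Of all tested genes 1.49%, 2.92% and 5.41% rose and 4.80%, 7.96% and 10.8% fell in these lines. The median log2 fold changes of the 12 genes were 0.01, 0.06 and 0.00. Among 5 other CDK inhibitors, 3 were tested, and CDKN1A (p21) was the gene that passed. It fell by 0.58 in BoM (edgeR adjusted p = 0.0033), from 27.6 to 29.4 CPM to 16.9 to 21.8 CPM, with values of -0.23 in LM2 and -0.33 in BrM3 that missed the threshold. The remaining pair, named after their values were seen, are the INK4 inhibitor genes CDKN2A, with at most 19 counts in any library, and CDKN2B, with at most 11. CDKN2D, a tested gene of the same family also named after its values were seen, stood at 31.3 to 54.3 CPM. It did not pass in any line.

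Of 6 further G1/S kinase and activator genes, CDK7, which activates other CDKs, passed in BoM, where 5.41% of tested genes rose. CDK7 rose by 0.43 there (edgeR adjusted p = 0.044), with values of 0.30 in LM2 and 0.42 in BrM3. Among 19 E2F target genes of S phase entry, 1 rose and 0 fell in LM2, and 1 rose and 2 fell in each of BrM3 and BoM. Over all tested genes 1.49%, 2.92% and 5.41% rose and 4.80%, 7.96% and 10.8% fell in LM2, BrM3 and BoM. Counts this close to those shares say nothing particular about the list. MCM4, a subunit of the replicative helicase, rose by 0.30, 0.27 and 0.28 in LM2, BrM3 and BoM (edgeR adjusted p = 0.033, 0.038 and 0.025), and 0.748% of tested genes rose in all 3. MCM6, of the same helicase, fell by 0.31 in BrM3 and 0.33 in BoM (edgeR adjusted p = 0.024 and 0.014). MYBL2, a transcription factor of proliferating cells, fell by 0.53 in BrM3 and 0.80 in BoM (edgeR adjusted p = 0.040 and 0.0025).

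The genes that turn over G1 proteins, such as SKP2 and FBXW7, and 8 genes of G2 and M had 0 calls in any line by edgeR. Of the 7 turnover genes, an unadjusted p under 0.05 was seen for 1 in LM2 and 1 in BoM, and for 0 in BrM3, and DESeq2 called 1 in BoM. Of the G2 and M genes, 0 had an unadjusted p under 0.05 in any line and DESeq2 called 0. Averaged over the lines, 2 of the 7 and 2 of the 8 rose by edgeR, where 15.6% of all tested genes rose.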

How the data were processed

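Paired-end libraries were made with a stranded mRNA kit from LM2, BrM3 and BoM cells. The authors aligned reads to hg38 and counted them per gene with STAR 2.7.0, and the deposited values are raw counts. The deposited table has 0 spike-in entries, so no scaling to cell number was made, and 0 sample columns were left out. The study spiked in RNA by cell count and reported that global RNA was unchanged after 3 days of WDR5 knockdown. That could not be repeated here. Another deposited table holds fold changes and p-values of the authors' own comparisons and was not used. Groups came from sample titles. Replicate numbers were taken to pair libraries where every same-numbered pair of a line deviated together (r over 0.1), which held in BoM (0.559, 0.321 and 0.145). A differently numbered BoM pair, shCtrl replicate 2 and shWDR5 replicate 3, reached r = 0.209, so the pairing is not certain there either. Values given for BoM come from the fit without the block unless the block is named. The members and gene lists were chosen with earlier results of these data known.

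Counts were fitted with edgeR 4.0.16 (quasi-likelihood, TMM scaling, 6 groups, 12 residual degrees of freedom) over the 12160 genes whose highest normalized count exceeded 139.7, the threshold from 1 to 200 with the highest Jaccard index between replicates. All 10 members passed this filter. Calls were made at a Benjamini-Hochberg adjusted p under 0.05. SE and 95% intervals came from the F statistic. Ratios were compared by exact permutation of log2 values (scipy 1.17.1). Lengths and positions are those of GENCODE 44 on GRCh38. The fit was tested on simulated counts, where most changes near the size of that of CDK4 were missed within single lines. A gene that did not pass in a line may therefore still have changed there. Genes named beside the members are WDR5, up to 4 genes per list called in a line with the largest mean change, listed genes under 10 counts, and the 2 genes most like a member called in at least 2 lines. Alternatives were DESeq2 1.42.0, RLE scaling, filterByExpr, no filter, a block of the replicate number within each line, removal of GC dependence (loess), smaller fits and each library left out.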

Additional observations from a re-analysis of the deposited data

How the results depend on the processing

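The number of members called after knockdown in LM2 was 0 in the reported fit, 1 with DESeq2, 1 with the replicate block, 2 with GC dependence removed and 3 with both. In BrM3 it went from 1 to 3 with GC dependence removed, alone or with the block. In BoM it went from 1 to 2 with both and to 0 with that line's 6 libraries alone. The averaged count went from 2 to 4 with the block and 6 with GC dependence removed as well. Between control BoM and BrM3 the count went from 2 to 1 with RLE scaling, filterByExpr or no filter. Without each library in turn the counts were 0 to 1 in LM2, BrM3 and BoM and 1 to 2 between control BoM and BrM3. The cause of these shifts was not tested. With the block, edgeR also called CDK4 in LM2 (0.36, adjusted p = 0.021) and, averaged over the lines, CDKN1B (0.15, adjusted p = 0.040) and CCND2 (-0.43, adjusted p = 0.045). Over all genes, calls in LM2 went from 765 to 1443 with the block, 1989 with GC dependence removed, 3442 with both and 292 with 6 libraries. They went from 1323 in BrM3 to 2310, 2991 and 4537, and from 1967 in BoM to 3205, 3471 and 4850 with the block, GC dependence removed and both. With 6 libraries BoM had 913. With both, the average went from 4318 to 7347 and control BoM against BrM3 from 4576 to 6965.

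In LM2 and BrM3 the same-numbered libraries did not all deviate together (r = 0.574, 0.0314 and 0.728, and 0.543, 0.510 and -0.170), so there the numbers were not taken to pair them. In BoM they did, and the block left the members called there at 1. The remaining count comparisons stayed within 1.5 times. Of single values, 2375 kept direction and side of the threshold, 30 gained a call, 38 lost it and 117 changed sign without a call under either setting. Levels per kilobase moved by more than 1 SD for 102 of their 120 alternatives with another length or TPM. CCND2, at 13 to 178 counts, is limited by depth.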

Other observations

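Between the control lines, the 8 genes of G2 and M and the 19 E2F target genes of S phase entry were also compared. From BrM3 to BoM, 4 of the 8 G2 and M genes were higher and 0 lower (median log2 difference 0.30), and 7 of the 19 S phase genes were higher and 1 lower (median 0.20), while 17.8% of all tested genes were higher, 19.8% were lower and the median was 0.00. From LM2 to BrM3, 1 of the 8 was higher and 3 were lower (median -0.18), and 2 of the 19 were higher and 5 lower (median -0.16). Over all tested genes 24.2% were higher and 23.4% lower, and the median was 0.01. From LM2 to BoM, 1 of the 8 was higher and 0 lower (median 0.01), and 5 of the 19 were higher and 4 lower (median 0.04), against 26.0% higher and 25.8% lower. The lists share the control libraries of the members' own comparisons.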
